A study of Mus musculus with 5 samples.

Results

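The 4 arrays that measured brain RNA bound to the protein MA-Brent-1 were compared by the level of their hybridisation controls, out of 5 arrays in all. For each bound array the mean log2 signal of the 18 probe sets for bioB, bioC, bioD and cre was computed. The sides were chosen by these measured values: the 2 arrays with the higher mean were set against the 2 with the lower mean. The higher side held the eluate of deiminated REFP2, sample 3, and the non-deiminated eluate titled as a control biorepeat of MA-Brent-1. The lower side held the eluate of deiminated MA-Brent-1 and the eluate of non-deiminated REFP2, sample 1. Each side therefore had 1 deiminated and 1 non-deiminated eluate. The remaining array held the starting RNA that went through no binding step, called input here. These sides come from measured control values, and no label names them as a condition or a batch.

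All samples were labelled as mouse brain and were hybridised with a biotin label to an expression array of 45101 probe sets. Strain, age and sex, and how the binding was done, are not given in the sources used here. 2 titles name the protein MA-Brent-1 and 2 name it REFP2, and the descriptions name MA-Brent-1 for all 4. Only 1 title speaks of a biorepeat, and nothing says whether the rest came from separate preparations. A p-value here therefore measures the spread between arrays, which may be technical. Within a side that spread also holds the differences in deimination and in the protein name of the title.

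MA-Brent-1 and REFP2 are names used for REF/Aly family proteins, adaptors that bind messenger RNA in the nucleus and hand it to the export receptor. Deimination turns arginine residues of a protein into citrulline and so removes positive charge. The hybridisation controls are biotin-labelled transcripts of Escherichia coli biotin synthesis genes (bioB, bioC and bioD) and of the phage recombinase cre, which the usual Affymetrix protocol adds to every hybridisation in fixed amounts that rise from bioB to cre. A second kind of control, the Bacillus subtilis transcripts dap, lys, phe and thr, carries a poly-A tail and can be added to the RNA before labelling. No label states whether or in what amount it was added. The deposited signals were scaled array by array to 1 common trimmed mean.

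The control level, which chose the sides and is given without a test, was 12.6 log2 on the higher deiminated array and 13.04 on the higher non-deiminated array. It was 10.6 on the lower deiminated array and 10.09 on the lower non-deiminated array. The gap between the arrays next to the divide was 2.005 log2, and the sides differed by 2.48 log2, or 5.58-fold. On the input array the level was 17.04, far above all 4 bound arrays. Each of the 4 control transcripts kept its order within an array, from bioB (10.6 and 11.1 log2 on the higher side, 8.45 and 7.89 on the lower) to cre (15.2 and 15.5 against 13.4 and 13.02). All 18 probe sets read higher on both higher arrays than on both lower arrays, with differences from 2.01 to 2.93.

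**Figure D1:**
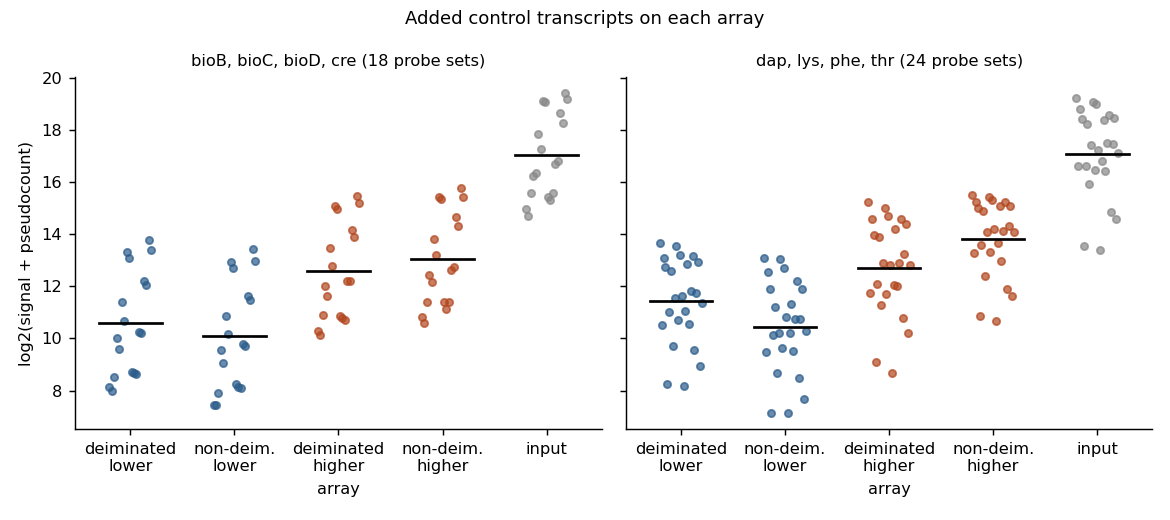
Log2 signal of each added control probe set (points) and their mean (bar) on the 4 bound arrays and the input array, for the hybridisation controls that chose the sides (left) and the poly-A controls that did not (right). Both higher-control arrays lie above both lower-control arrays in both panels, with hybridisation means of 12.6 and 13.04 against 10.6 and 10.09.

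The poly-A controls share each array's scaling with the hybridisation controls and so are no separate check. They were not used to choose the sides. Averaged over 24 probe sets, they read 12.7 log2 on the higher deiminated array, 13.8 on the higher non-deiminated array, 11.4 on the lower deiminated array and 10.5 on the lower non-deiminated array. All 24 probe sets were higher on both higher arrays, by 1.94 to 2.65 log2. The difference was smaller in the deiminated pair (median 1.32) than in the non-deiminated pair (median 3.47). Of the other 22 control probe sets, 7 were higher on both higher arrays and 4 were lower on both. The probe set AFFX-MURINE_b1_at had 31083 and 32535 on the higher side against 10651 and 8520 on the lower side. 18S ribosomal RNA went the other way at its 3' probe set, with 2579 and 2556 against 3925 and 4030. The ratio of 3' to 5' signal, a sign of how much of a transcript's 5' end was copied, did not follow the sides. For beta-actin it was 45.2 and 55.6 on the higher arrays against 51.7 and 29.8 on the lower ones, and for Gapdh 31.9 and 17.4 against 21.9 and 31.7.

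All probe sets other than controls were scaled to the same trimmed mean on each array, but the shape of the distribution differed between the sides. The median signal was 37.5 and 41.4 on the higher arrays against 29.8 and 30.5 on the lower arrays. At the 90th percentile the order turned, with 451 and 443 against 477 and 488. The brightest probe set reached 34919 and 45160 on the higher arrays but only 15839 and 12703 on the lower arrays. The ratio of the brightest to the median signal was 931 and 1090 on the higher arrays against 531 and 417 on the lower arrays. The range was thus wider on the higher-control arrays. Relative to the hybridisation controls, the median probe set lay 7.22 and 7.53 log2 units below on the higher arrays and 5.51 and 4.98 below on the lower arrays.

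The labelled tissue was checked on its marker lists. The 25 neuronal markers had a median signal of 1493 and 1347 on the higher arrays and of 1226 and 1251 on the lower arrays. The median over all 18193 genes was 74.5 and 78.7 against 69.5 and 71.5. The 13 hepatocyte markers had medians of 4.86 and 19.6 against 14.95 and 13.3, although Ttr in that list is also a choroid plexus gene. The 15 striated muscle and 15 testis germ cell markers had medians from 6.47 to 29.1 on the 4 bound arrays. Neuronal markers were therefore bright on every bound array, and the medians of these other tissues lay below that of all genes on each of them. In such bulk RNA, fewer cells of a type and less RNA per cell cannot be told apart.

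Probe sets other than controls were not in the mean that chose the sides, but they entered the scaling on which that mean rests. Their values are therefore not fully independent of the choice. These probe sets were tested with limma, 2 arrays against 2, on log2(signal + 4.18). The 27022 probe sets at or above the 40th percentile of mean signal on the bound arrays were kept. limma called 0 of them at a Benjamini-Hochberg adjusted p under 0.05, and the smallest adjusted p was 0.101. At an unadjusted p under 0.05 there were 3933 probe sets (14.6%), 2360 higher (8.73%) and 1573 lower (5.82%). Of these 3933, 60.01% were higher, and the split rests on the scaling: 45.1% were higher after quantile normalisation, 47.97% after cyclic loess and 13.8% after median centring, which moved the median difference over genes from 0.03 to -0.32. No probe set is therefore called different between the sides here, and the values below describe these 4 arrays. For 29.8% of them the whole 95% interval was inside a 2-fold difference either way, and for 84.4% inside 4-fold.

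Deiminated against non-deiminated eluates, fitted in the same way on the same 4 arrays, gave 0 calls and 359 probe sets (1.33%) at an unadjusted p under 0.05, 176 higher (0.651%) and 183 lower (0.677%) in deiminated eluates. Leaving out 1 array at a time gave 172 (without the higher deiminated array) to 3200 (without the lower non-deiminated array), and the control level as a covariate gave 1022. The 4 arrays allow 3 independent contrasts, which are the control level, deimination and the protein name in the title. Their differences split between these as 44.9% for the control level, 26.5% for deimination and 28.6% for the protein name. Among the 6756 brightest probe sets the shares were 59.5%, 16.0% and 24.5%. The control level thus took the largest share of the 3, and in each 2-against-2 fit the other contrasts form the error. The control level contrast is also the interaction of deimination with the protein name. Those readings cannot be told apart with 4 arrays.

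The deiminated pair and the non-deiminated pair share no array and were set side by side. Over all kept probe sets the higher-minus-lower differences of the pairs had a Pearson r of 0.215, and 60.4% had the same sign. In the 6756 brightest probe sets r was 0.447 and 65.0% had the same sign. The same measure for deimination, within the higher arrays and within the lower arrays, was -0.047 over all probe sets and -0.230 in the 6756 brightest. These correlations are across probe sets of the same 4 arrays, which share their scaling, and they rest on the same sums as the shares above. They describe the arrays and are no separate support. Whether the level difference itself differed between the deimination states could not be tested. That interaction is the protein name contrast, and 4 arrays leave it no error but the control level and deimination differences. With those as its error limma called 0 of 27022 probe sets and had 609 (2.25%) at an unadjusted p under 0.05, which says nothing on whether the states differ.

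**Figure D2:**
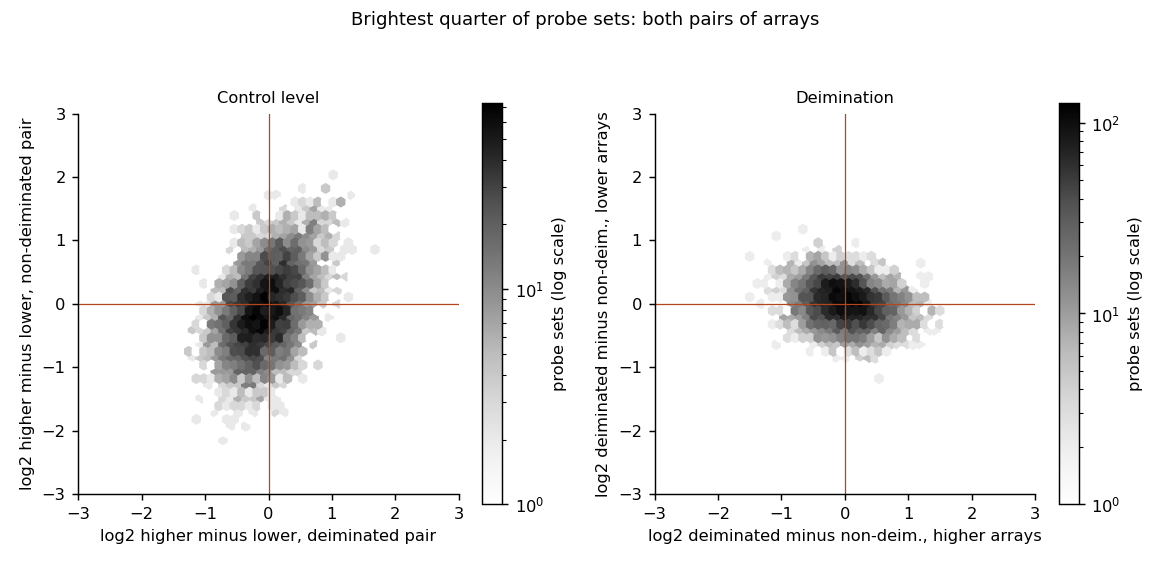
Log2 differences of the 6756 brightest kept probe sets in pairs of arrays that share no array: higher minus lower control arrays in the deiminated and non-deiminated pair (left), and deiminated minus non-deiminated on the higher and on the lower arrays (right). The left cloud leans upward (r = 0.447) and the right one slightly downward (r = -0.230), with shading on a log scale for the number of probe sets.

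The arrays of a side were not alike in every respect. The 2 lower arrays had an r of 0.972 with each other over the kept probe sets, and the 2 higher arrays had 0.900. The higher deiminated array was closer to the lower arrays (0.938 and 0.933) than to the other higher array. The higher non-deiminated array had 0.907 and 0.896 with the lower arrays and so stood farthest from the rest. Without it, limma called 1685 probe sets, and without the higher deiminated array it called 5550. Without the lower deiminated array it called 163, and without the lower non-deiminated array 37. Each of these fits leaves 1 array on a side, which is assumed to vary like the pair on the other side. The standard deviation of the difference within a side was 0.87 log2 on the higher side and 0.47 on the lower side.

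The difference followed the brightness of the probe sets. In 10 bands of equal size the median difference was 0.34 log2 in band 1, the dimmest, 0.01 in band 7 and -0.14 in band 9. Within band 10 it climbed from -0.13 for the probe sets between the top 10 and top 5 percent to 0.29 between the top 2 and top 1 percent, and to 1.28 for the 27 brightest. Both pairs showed this order, with 1.09 in the deiminated and 1.47 in the non-deiminated pair for the 27 brightest. For these 27 probe sets, the control level took 95.9% of the differences between the arrays.

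**Figure D3:**
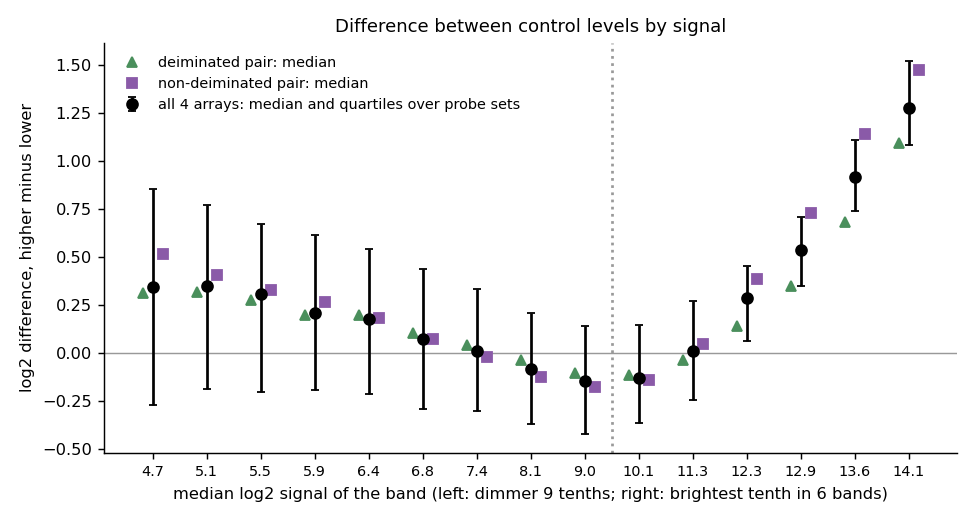
Median log2 difference, higher minus lower control arrays, with quartiles over probe sets (black), for bands 1 to 9 of 10 equal bands of kept probe sets (left of the dotted line) and 6 finer bands of band 10 (right), and the medians of the deiminated (green triangles) and non-deiminated (purple squares) pair. The medians run from 0.34 in band 1 through -0.14 in band 9 to 1.28 in the brightest band.

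The brightest 1 percent were 270 probe sets of 164 named genes, and 208 of the 3933 probe sets at an unadjusted p under 0.05 were among them. Their median signal was 12016 and 13184 on the higher arrays against 8654 and 7104 on the lower arrays. Both higher arrays lay above both lower arrays for 251 of the 270 (93.0%), where 29.9% of all kept probe sets did so, and below both for 1, where 19.0% of all did. The median difference was 0.75 log2, or 1.68-fold, with 0.55 in the deiminated and 0.94 in the non-deiminated pair. It was 0.02 after quantile normalisation, which gives all arrays the same distribution, 0.46 after cyclic loess and 0.41 after median centring. Probe sets whose name ends in x_at, which are designed from sequence shared with other transcripts, made up 129 of the 270. Over all kept probe sets the x_at type had a median difference of 0.25 and 23.1% at an unadjusted p under 0.05, against 0.10 and 13.6% for the plain at type. The x_at type was also brighter, with a median log2 signal of 8.06 against 6.36, and probe set type and brightness were not separated.

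Genes are represented below by their brightest probe set, which left 13092 named genes with 961 (7.34%) higher and 928 (7.09%) lower at an unadjusted p under 0.05. The sides did not overlap for 3489 genes in the higher direction (26.6%) and 2930 in the lower direction (22.4%). The genes that lead each direction were taken by their moderated t among those whose sides did not overlap. None passed, with adjusted p from 0.101 to 0.146 for these 20 genes.

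In the higher direction, 9 of the 10 leading genes lay above log2 12 in mean signal, and most encode abundant brain transcripts. Ttr, the thyroid hormone carrier transthyretin made by the choroid plexus, had 34919 on the higher deiminated array, 40571 on the higher non-deiminated array, 12881 on the lower deiminated array and 10627 on the lower non-deiminated array. Its log2 difference was 1.69 ± 0.20 (standard error, n = 2 and 2; limma adjusted p = 0.101). Cpe, the carboxypeptidase that trims neuropeptide precursors, had 31732 and 30555 against 11392 and 9198, a difference of 1.60 ± 0.20 (limma adjusted p = 0.101). Both genes were about 3 times as bright on the higher side. Sides that do not overlap were a condition for all leading genes. Mbp, which encodes myelin basic protein, had 33403 and 42153 against 14068 and 10834. Tuba1a, an alpha tubulin of neurons, had 24917 and 31520 against 11426 and 9800. Camk2n1, an inhibitor of the kinase CaMKII, had 18189 and 22403 against 8161 and 7546.

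The ribosomal protein gene Rps29 was the brightest of the leading genes, with 34600 and 45160 against 15839 and 12328. Cox6a1, a subunit of cytochrome c oxidase, had 24808 and 28493 against 11625 and 9453. Nsmf, a synapse-to-nucleus signalling factor, and Qdpr, which regenerates the cofactor of aromatic amino acid hydroxylases, had differences of 1.53 and 1.34. In these 9 genes the lower arrays read at most 15839 and the higher arrays at least 18189. After quantile normalisation these 9 genes kept differences of only 0.05 (Rps29) to 0.48 (Camk2n1).

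Hbb-b2, an adult beta-globin gene of red blood cells, was the exception, with a mean log2 signal of 7.15. It had 295 and 375 on the higher arrays against 59.3 and 51.8 on the lower arrays, a difference of 2.50 ± 0.30 (limma adjusted p = 0.101), or 5.65-fold. After quantile normalisation the difference was 2.41. The other kept probe set named Hbb-b2 had 92.0 and 240 against 136 and 92.2, with overlapping sides and a difference of 0.40. Beta-globin genes are near-identical copies, so these probe sets may share transcripts. The red blood cell markers had 4 kept members of 5 on the array, all above 0, with 3 not overlapping (26.6% of all genes in this direction) and 1 (Hbb-b2) at an unadjusted p under 0.05 (7.34% of all genes). The anion exchanger Slc4a1 had 0.71 ± 0.40 and Hba-a1 0.56 ± 0.54, while Alas2 had 0.03 with overlapping sides. Slc4a1 and Hba-a1 were at 6.44 and 4.99 in mean log2 signal, in bands 5 and 2. All probe sets of those bands had median differences of 0.18 and 0.35, and 33.1% and 38.0% had both higher arrays above. The summed signal of the 5 markers was 550 and 634 on the higher arrays against 240 and 242 on the lower arrays, and 1348 on the input array. Hbb-b2 held most of that sum on the higher arrays, and the part of blood in the result was not tested.

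**Figure D4:**
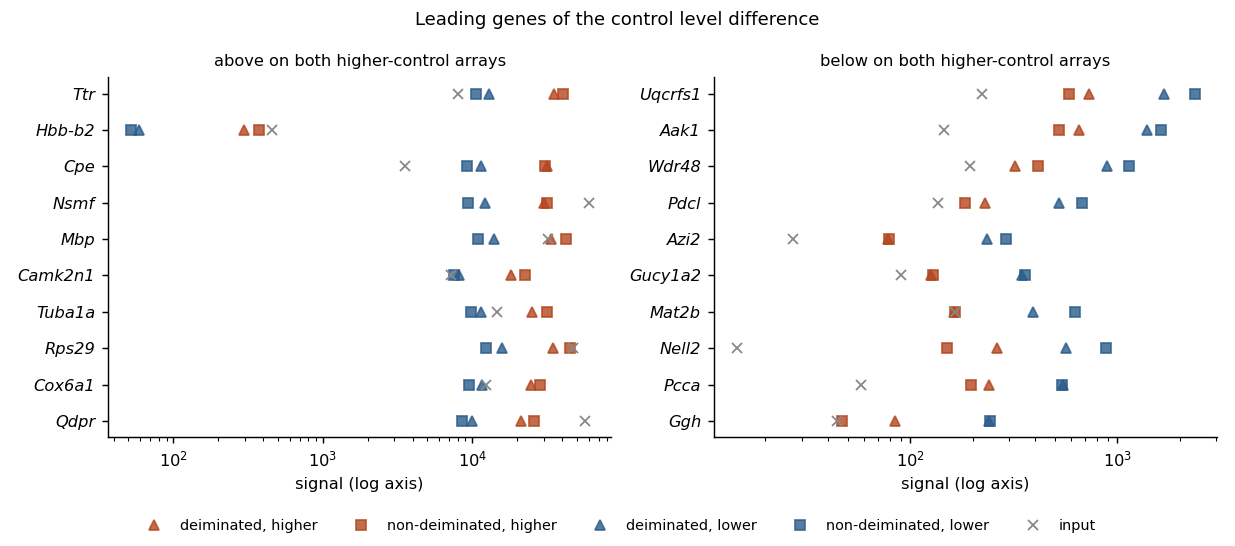
Signal on a log axis of the 10 genes that lead each direction by moderated t among genes whose sides do not overlap, on the higher (orange) and lower (blue) control arrays of deiminated (triangles) and non-deiminated (squares) eluates, with the input array as crosses. The genes on the left other than Hbb-b2 lie between 7546 and 45160 on the bound arrays, and those on the right lie between 47.1 and 2358.

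In the lower direction the leading genes had middling signals, from 7.01 to 10.2 in mean log2. Uqcrfs1, the Rieske iron-sulphur subunit of respiratory complex III, had 727 and 587 on the higher arrays against 1683 and 2358 on the lower arrays. Its difference was -1.60 ± 0.24 (limma adjusted p = 0.116). Aak1, a kinase of clathrin adaptors, had 650 and 522 against 1383 and 1619. Wdr48, a cofactor of deubiquitinating enzymes, had 319 and 413 against 891 and 1143. Gucy1a2, a subunit of the nitric oxide receptor guanylate cyclase, had 126 and 128 against 345 and 359. All 4 were required to have sides that do not overlap.

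Nell2, a secreted neuronal glycoprotein, had 261 and 150 against 565 and 880, and its difference of -1.81 ± 0.33 (limma adjusted p = 0.146) was larger in the non-deiminated pair (-2.52) than in the deiminated pair (-1.10). Ggh, a folate hydrolase, had -1.87, Azi2 -1.68, Mat2b, which regulates methionine adenosyltransferase, -1.57, Pdcl -1.51 and Pcca, a subunit of propionyl-CoA carboxylase, -1.31. Among the 3273 brightest genes the leaders in this direction also took in Bloc1s2 with -1.28, the kinase Hipk3 with -1.12 and Ptbp2, a splicing regulator of neurons, with -1.28. Unlike the higher direction, the 10 leading differences here were nearly the same size after quantile normalisation, from -2.00 to -1.25. The 10 genes had 10 further kept probe sets, of which 8 also read below 0, and the 10 leading higher genes had 19, of which 12 read above 0. For Camk2n1 and Qdpr, the only other kept probe set did not have the same direction.

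Some genes have several probe sets of different brightness, and the 3 described next were chosen after their values were seen. Mbp had 8 kept probe sets on the array. The 4 brightest, between 13.9 and 14.4 in mean log2 signal, had differences of 1.60, 1.53, 1.28 and 1.10. The fifth, at 12.7, had 0.46, the next pair had -0.20 and -0.24, and the dimmest, at 5.59, had -1.51. For 1 gene the difference thus ran from above 1 to below -1 in the order of probe set brightness. The dimmest Mbp probe set did not follow the bands of all probe sets, whose medians near its brightness were 0.31 (band 3) and 0.21 (band 4). Ttr also fell in that order over 4 probe sets, though less far, with 1.69, 1.53, 0.32 and -0.31 from the brightest to the dimmest. Meg3, a maternally expressed long non-coding RNA of neurons, had 11 kept probe sets and 10 of them were above 0, across mean log2 signals of 5.15 to 12.4. Its brightest had 8839 and 7415 against 4277 and 3146, a difference of 1.14 ± 0.22 (limma adjusted p = 0.146). The pairs gave 1.05 (deiminated) and 1.24 (non-deiminated) for that probe set, but several other Meg3 probe sets had opposite signs in the pairs and overlapping sides. The one at 9.34 in mean log2 signal had 1.22 in the deiminated and -0.74 in the non-deiminated pair. The one at 11.2 had 1.46 and -0.35.

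**Figure D5:**
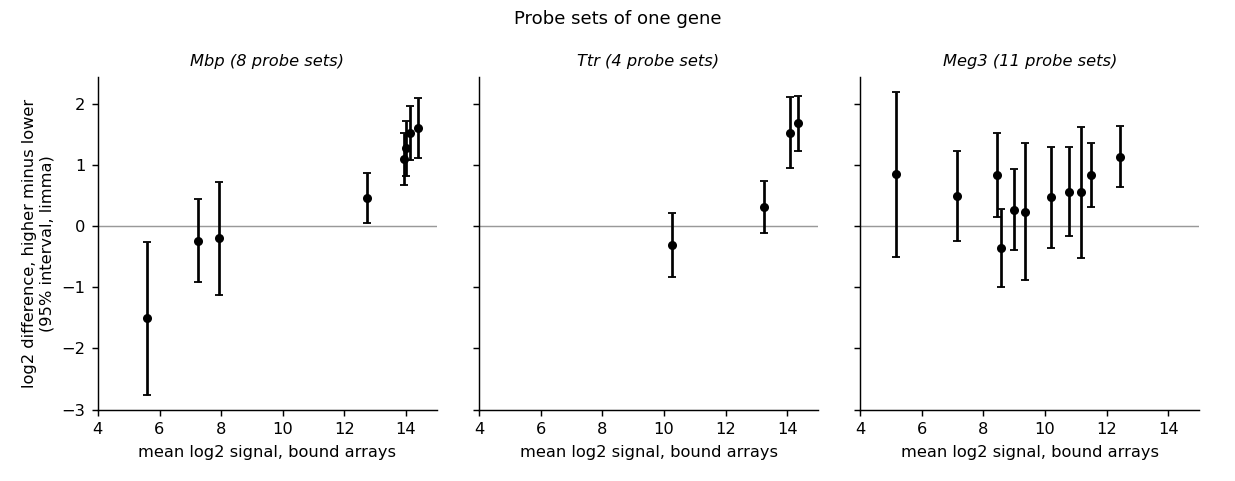
Log2 difference, higher minus lower control arrays, with its 95% interval from limma, against mean log2 signal for each kept probe set of Mbp, Ttr and Meg3. The Mbp and Ttr probe sets run from 1.60 and 1.69 at the bright end to -1.51 and -0.31 at the dim end, while 10 of 11 Meg3 probe sets lie above 0.

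Over the 5715 genes with at least 2 kept probe sets, the level differences of the 2 brightest had an r of 0.0926 and the same sign in 53.9%. With both among the 6756 brightest, 1141 genes, r was 0.228 and 57.1% had the same sign. For the deimination difference the same r was 0.0245 and 0.166. Probe sets of a gene thus followed each other weakly for either contrast.

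The gene lists are described by counts and medians beside those of all genes, whose median was 0.03. The shares of all genes given below are not matched for brightness. The 3273 brightest genes had a median of -0.04, with 25.2% above and 31.3% below on both higher arrays. At an unadjusted p under 0.05, 376 of them were higher and 380 lower. They held 22 of 25 neuronal, 43 of 49 oxidative phosphorylation, 28 of 34 ribosomal and 28 of 35 splicing members. Long non-coding RNAs had 21 kept members with a median of 0.15, 14 above 0, 4 higher at an unadjusted p under 0.05 and 0 lower (7.34% and 7.09% of all genes). Rmst, a neural long non-coding RNA, had 220 and 153 against 68.4 and 48.4, and Xist, which coats the inactive X chromosome, had 4167 and 2850 against 1863 and 1794. Their differences were 1.60 ± 0.35 and 0.91 ± 0.23 (limma adjusted p = 0.159 and 0.186), and 1.46 and 0.88 after quantile normalisation. Of the 2 other kept Xist probe sets, 1 had the same direction. Without the lower non-deiminated array the list median was 0.08, and without the higher deiminated array it was -0.10. After median centring it was -0.19, where that of all genes was -0.32.

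Neuronal markers had 25 kept members and a median of 0.10. Both higher arrays lay above for 11 (44%, against 26.6% of all genes) and below for 3 (12%, against 22.4% of all genes). Leaving out 1 array at a time gave list medians from 0.02 to 0.25. Camk2a, the kinase subunit of dendritic synapses, had 4094 and 3537 against 2112 and 1894, a difference of 0.93 ± 0.20 (limma adjusted p = 0.156). The neurofilament gene Nefm had 0.59 ± 0.24, but the other neurofilament genes, named after their values were seen, had -0.75 ± 0.22 (Nefh) and -0.25 ± 0.21 (Nefl). Uchl1, a neuronal ubiquitin hydrolase, had 731 and 762 against 996 and 1179. At an unadjusted p under 0.05 there were 3 higher and 2 lower neuronal markers (7.34% and 7.09% of all genes). Stmn3, a microtubule regulator, had 0.73 ± 0.19 as deposited and -0.54 after quantile normalisation. Of the other kept probe sets, 1 of 3 for Camk2a and 0 of 1 for Stmn3 had the same direction. Transcripts known from dendrites, a list that shares Camk2a and other members with the neuronal markers, had a median of 0.07 over 20 members, with 4 higher at an unadjusted p under 0.05 and 0 lower (7.34% and 7.09% of all genes). The glutamate receptor gene Grin2b had 1463 and 1134 against 677 and 657, a difference of 0.95 ± 0.22 that was 1.04 after quantile normalisation.

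Astrocyte markers had a median of 0.01 over 15 members, with 4 higher and 1 lower at an unadjusted p under 0.05 (7.34% and 7.09% of all genes). The lower one was Sparcl1, with 2418 and 1711 against 2802 and 3019. Clu had 1.25 ± 0.26, Glul, the glutamine synthetase of astrocytes, 0.92 ± 0.19 and the glutamate transporter Slc1a3 0.76 ± 0.19. After quantile normalisation these were 0.29 for Clu, 0.32 for Glul and 0.57 for Slc1a3. The other kept probe sets had the same direction in 2 of 3 for Clu, 0 of 1 for Glul and 0 of 3 for Slc1a3. Oligodendrocyte markers had a median of -0.11 over 14 members, with 3 above on both higher arrays, Mbp among them, and 5 below (26.6% and 22.4% of all genes), such as Ugt8a with -0.69 ± 0.22 and Mag with -0.51 ± 0.29. Microglial markers had a median of -0.13 over 11 members, 4 of them above 0. At an unadjusted p under 0.05 there was 1 higher and 1 lower (7.34% and 7.09% of all genes). The signalling adaptor Tyrobp had 155 and 199 against 274 and 285. The lysosomal protein gene Laptm5 had 4029 and 4554 against 2888 and 2300, in the other direction. Endothelial markers had 0.13 over 11 members and choroid plexus markers 0.04 over 9. Each of these lists had 1 higher member, Abcb1a and Ttr, and 0 lower at an unadjusted p under 0.05 (7.34% and 7.09% of all genes). The choroid plexus gene Kcnj13 had 220 and 181 against 191 and 223, and Clic6 had 234 and 188 against 230 and 208. The summed signal of the 10 choroid plexus markers, nearly all of it Ttr, was 35980 and 41643 against 13886 and 11581. Their part in the Ttr difference was not tested.

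Oxidative phosphorylation subunits were split, with 16 higher and 11 lower of 49 at an unadjusted p under 0.05 (7.34% and 7.09% of all genes) and a median of 0.12. Besides Cox6a1, Cox5a had 1.20 ± 0.22 and Cox6c 1.36 ± 0.26, which were 0.19 and 0.52 after quantile normalisation, and Uqcrfs1 was the leading gene of the other direction. After quantile normalisation the median was -0.19, and leaving out 1 array at a time gave 0.04 to 0.21. Cytosolic ribosomal proteins had a median of -0.02 over 34 members, with 7 higher, Rps29 among them, and 2 lower at an unadjusted p under 0.05 (7.34% and 7.09% of all genes). That median had no stable sign, at -0.18 after quantile normalisation, 0.22 without the higher deiminated array and -0.10 without the higher non-deiminated array. Rpl41 had 1603 and 3051 against 6085 and 4470, and 1 of its 3 other kept probe sets had the same direction. Splicing factors and hnRNPs had 6 higher and 5 lower of 35 at an unadjusted p under 0.05 (7.34% and 7.09% of all genes), with a median of 0.07. Hnrnpk had 17040 and 18997 against 8894 and 7225, a difference of 1.17 that was 0.34 after quantile normalisation, and Srrm2 had 7771 and 6542 against 4052 and 3664. Of their other kept probe sets, 1 of 3 for Hnrnpk and 2 of 2 for Srrm2 had the same direction.

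Immediate early genes had a median of -0.19 over 20 members, with 14 below 0, 3 lower and 2 higher at an unadjusted p under 0.05 (7.09% and 7.34% of all genes). Leaving out 1 array at a time gave -0.34 (without the higher deiminated array) to -0.075 (without the lower deiminated array). Fos, the transcription factor induced by neuronal activity, had 178 and 79.5 against 302 and 340, a difference of -1.39 ± 0.37 (limma adjusted p = 0.208). Egr2 had -1.004 ± 0.33 and Egr3 -0.49 ± 0.20, and the other kept probe set of each had the opposite direction. mRNA export factors had -0.16 over 25 members, with 1 higher and 2 lower at an unadjusted p under 0.05 (7.34% and 7.09% of all genes). Heat shock proteins and chaperonins had -0.14 over 25, with 2 higher and 1 lower at that threshold (7.34% and 7.09% of all genes). Proteasome subunits had -0.13 over 31, with 3 higher and 3 lower at that threshold (7.34% and 7.09% of all genes). Thoc5, a subunit of the THO complex that couples transcription to export, had -1.12 ± 0.45, the chaperonin gene Cct5 -0.47 ± 0.21 and the proteasome gene Psmd14 -0.60 ± 0.22. The proteasome genes Psmb3 and Psmb4 went the other way, with 0.97 ± 0.21 and 0.91 ± 0.24. Psmb3, Psmb4, Laptm5, Sparcl1 and Uchl1 were likewise named after their values were seen. Of the replication-dependent histones, 3 members were kept, with a median of 0.07.

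Lists of genes that brain hardly expresses were mostly under the filter. Of 77 olfactory, vomeronasal and taste receptor genes on the array, 7 were kept. A dim gene could pass the filter through its higher side alone, so the kept members are no support for a direction. Over all 77 the median difference was 0.39 and the median signal was 4.19 and 10.2 on the higher arrays against 3.56 and 2.65 on the lower arrays, where the pseudocount is 4.18. Hepatocyte markers had 5 kept of 13, testis markers 5 of 15 and muscle markers 6 of 15. The muscle list holds Pvalb, which was bright on these arrays, with 2402 and 1934 against 2487 and 2968. Alb, the liver albumin gene, had 28.3 and 32.5 against 18.5 and 16.5. Over all 13 hepatocyte, 15 testis and 15 muscle members the median differences were 0.15, 0.34 and 0.29, and over all 18193 genes without a filter 0.092.

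Alyref, the mouse gene of the Aly export adaptor, had 58.3 and 78.7 on the higher arrays against 30.9 and 27.8 on the lower arrays. Its difference was 1.10 ± 0.43 (limma adjusted p = 0.300), and its other kept probe set had the same direction. Padi2, the main peptidylarginine deiminase of brain, had 261 and 310 against 213 and 270, with overlapping sides and a difference of 0.24 ± 0.26. Padi1 had 47.4 and 21.7 against 13.1 and 16.6, a difference of 0.95 ± 0.62, with 1.58 in the deiminated and 0.32 in the non-deiminated pair. Its mean log2 was 5.19 on the higher side and 4.24 on the lower side. A gene this dim could pass the filter through its higher side alone, so the value is no support for a direction. The 95% intervals of both Padi genes included 0, and the other 3 on the array were under the filter.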

How the data were processed

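Signals of 5 Affymetrix mouse arrays were used. The authors deposited 1 intensity per probe set on a linear scale, and MAS5 is named per the submitters' processing notes, in an unstated version. Every deposited column had a mean of 150 once the top and bottom 2% of probe sets were trimmed. Before log2, 4.18 was added to each value as a pseudocount, which is 41.8, the overall median, over 10. Gene names came from GEO's platform annotation: 34945 of 45037 non-control probe sets had 1 symbol, 932 several and 9160 none, and 34741 matched the RefSeq gene table by identifier, with 0 symbols changed.

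The fits used limma 3.58.1 under R 4.3.3, lmFit followed by eBayes with a signal trend, with 2 residual and 6.98 prior degrees of freedom, on 27022 kept probe sets of the 4 bound arrays. The script was tested on simulated data. The precision is limited by the number of arrays. Figures were drawn with matplotlib 3.10.9.

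Named genes were up to 10 per direction, past adjusted p 0.05 by size and then by moderated t, among genes whose sides did not overlap; up to 6 per direction among the 3273 brightest genes; up to 3 per list in the direction of its median; and Alyref and the Padi genes. Not all list genes are printed. The members, lists and tests were chosen with earlier results of these data known. Replicate numbers follow accession order and pair no arrays. The dap, lys, phe and thr controls were summarised together, and the trp probe sets were left with the other controls. The alternatives covered the pseudocount, filter, scaling, variance model, covariates and leaving out each array.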

Additional observations from a re-analysis of the deposited data

Results flagged for a closer look

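In 4 of the 19 gene lists with at least 5 kept members the median difference between higher and lower control arrays had opposite signs in the deiminated and the non-deiminated pair. Each pair is 1 array against 1, and the difference between the pairs was not tested for lists. Cytosolic ribosomal proteins had -0.20 in the deiminated and 0.27 in the non-deiminated pair. Oxidative phosphorylation subunits had -0.0780 and 0.25. Endothelial markers had -0.0040 and 0.25, and striated muscle markers, with only 6 kept members, 0.0415 and -0.57. The replication-dependent histones, with only 3 kept members, had 0.10 and -0.023.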

How the results depend on the processing

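The same 2 arrays formed the higher side under 5 other definitions of the control level, with a gap of 1.71 to 2.06 log2. Of the counts of calls between the sides, 0 as reported, limma gave 42 with the filter at the 60th percentile, 9 after cyclic loess, 177 with deimination as a covariate and 1259 with the protein name as a covariate, which leave 1 residual degree of freedom, and 37 to 5550 when an array was left out. The count at an unadjusted p under 0.05, 3933 as reported, ran from 1325 to 9568 when an array was left out and from 3141 to 5305 otherwise. For deimination, calls ran from 0 to 166 when an array was left out. The control level as a covariate equals a replicate block by accession order, a number that pairs no arrays; with it deimination had 0 calls and 1022 probe sets at an unadjusted p under 0.05, against 359 without and 172 to 3200 when an array was left out. No filter gave 898 and the stricter filter 142. The correlation of the pairs was 0.123 without a filter. The median of the brightest 1% was 0.0247 after quantile normalisation, 0.46 after cyclic loess and 0.41 after median centring, and 0.59 to 0.91 when an array was left out. Between 9 and 11 of the lists had a median above that of all genes, 10 as reported. The 23 leading genes were required to have sides that do not overlap, so leaving out an array or adding a covariate could not turn their sign. Under the other settings none of them turned sign. Other named genes did: Stmn3 (-0.54) and H3c4 (-0.14) after quantile normalisation, H3c4 (-0.12) after cyclic loess, and Dazl (-0.00395), H3c4 (-0.0797), H2bc21 (-0.28) and Padi2 (-0.10) after median centring. When an array was left out, H2bc21 ran from -0.18 (without the higher deiminated array) to 0.31, and Tmem119 from -3.08 to 0.23 (without the higher non-deiminated array). The causes were not tested beyond what each setting's construction gives. Dim probe sets limit all of this: the median standard error was 0.63 in the dimmest of 10 equal bands and 0.21 in the brightest.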
